A study of Mus musculus with 8 samples.

Results

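The mRNAs of 10 genes, most of them for proteins that make, fold or carry other proteins or RNA, were followed on 8 Illumina mouse bead arrays: the elongation factor genes Eef1a1, Eef1b2, Eef1d, Eef1g and Eef2, and Npm1, Hnrnpa1, Tpt1, Pabpc1 and Btf3. They were taken by gene symbol, as every probe annotated to these 10 genes, which gave 20 of the 25697 probes on the array and 10 of its 16593 named genes. The RNA came from mouse embryonic fibroblasts immortalised by passage, taken at embryonic day 14.5 and grown in DMEM with 10% serum. The wild-type (WT) line has normal eIF4E, and the knock-in (KI) line carries eIF4E that cannot be phosphorylated. Each line gave total cytoplasmic RNA and heavy polysomal RNA, which is mRNA bound by more than 3 ribosomes, in 2 independent experiments. That made 4 groups of 2 arrays, with 250 ng of RNA labelled per sample. Each genotype is 1 line, so an effect of the genotype cannot be told apart from one of the line, and p-values measure the spread between experiments on those lines. In bulk RNA of this kind, fewer cells carrying an mRNA and less of it per cell cannot be told apart.

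TOP mRNAs begin at the cap with a C followed by a run of pyrimidines, the 5' terminal oligopyrimidine tract. They encode ribosomal proteins, elongation factors and a few other proteins of translation, and the mTORC1 pathway and the cap- and TOP-binding protein LARP1 control their translation together. Initiation starts with the cap-binding factor eIF4E, a substrate of the MNK kinases. Among the members, Eef1a1 encodes eEF1A, which carries aminoacyl-tRNA to the ribosome. Eef1b2, Eef1d and Eef1g encode subunits of its nucleotide exchange complex, and Eef2 encodes the translocase eEF2.

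The sequences around the annotated start sites show the pyrimidine runs that the reference holds there. RefSeq (GRCm38.p6) start sites were at hand for 6 members: Eef1a1, Eef1b2, Eef2, Hnrnpa1, Tpt1 and Btf3. Each window below runs from 20 bases before the annotated start to 30 bases from it, 5' to 3' on the gene's strand, and capitals mark the longest run of C and T that begins with C. Eef1a1, Eef2 and Btf3 are shown because they have runs of 7 or more, and Hnrnpa1 because its polysomal excess was among the largest of the members. The run in the Hnrnpa1 window is short, but that window lies inside the gene, which begins at position 103239943. The bases around that gene start were not examined, so the window does not show whether Hnrnpa1 has a longer run there.
Eef1a1 (chr9:78481695-78481744, minus strand): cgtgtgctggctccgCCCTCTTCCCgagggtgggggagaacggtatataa
Eef2 (chr10:81176611-81176660, plus strand): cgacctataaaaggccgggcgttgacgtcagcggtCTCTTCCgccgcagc
Btf3 (chr13:98316977-98317026, minus strand): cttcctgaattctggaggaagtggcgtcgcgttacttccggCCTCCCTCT
Hnrnpa1 (chr15:103240377-103240426, plus strand): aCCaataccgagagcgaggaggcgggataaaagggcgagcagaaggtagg

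The run was 10 bases long in Eef1a1, 9 in Btf3, 7 in Eef2, 4 in Eef1b2 and 2 in Hnrnpa1 and Tpt1. None of these runs begins at the annotated start: that of Eef1a1 begins 5 bases before it, that of Eef2 at position 16 and that of Btf3 at position 22. Btf3 has a second annotated start, and the same run begins 18 bases before that one. A run of at least 7 was found in 22.2% of the 32851 annotated starts and in 54.8% of the 73 starts of cytosolic ribosomal protein genes. For at least 10 bases these shares were 6.93% and 31.5%. The letters TATAA, searched on the gene's strand in these windows, begin 15 bases before the annotated start of Eef2 and at position 26 after that of Eef1a1. On either strand, a wider search, they were present in 3.05% of all windows. Annotated starts need not be the cap site of these cells, so the windows describe the reference and not the mRNAs measured.

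Arrays differed mainly by RNA type. Correlation across all probes was 0.991 and 0.987 between the polysomal replicates of WT and KI, but 0.970 and 0.975 between the total replicates. In total RNA, the second experiment's WT and KI arrays were closer to each other (0.982) than the WT pair was. Array medians lay between 7.69 and 7.73 on the log2 scale, at the bottom of the signal range, and a probe in that band has no measurable level. Of 11 fibroblast markers, 6 read above 9 on all arrays, among them Col1a1, Col1a2 and Thy1, while Lum lay at the bottom; their summed level per array was 112.4 to 119.2. All 5 endothelial markers read below 8 on all arrays, as did 4 of 5 leukocyte markers (Cd14 read 9.12 to 9.89), 3 of 4 skeletal muscle markers and 3 of 5 epithelial markers. Of 4 neural markers only 1 did, and Nes read 8.65 to 11.23. The Eif4e probe, whose position relative to the mutation was not examined, read 7.82 and 7.76 in WT total, 7.67 and 7.76 in KI total, 8.66 and 8.44 in WT polysomal and 7.76 and 7.76 in KI polysomal RNA.

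Of the 20 member probes, 17 lay above the filter on dim probes (a mean over the 8 arrays above 7.73, the median of all probe means) and were tested. They belong to 8 genes. Eef1a1 and Tpt1, which encodes the translationally controlled tumour protein, each had 1 probe, and neither left the bottom of the range. The Eef1a1 probe (ILMN_1244894) read 7.66 and 7.65 in WT total, 7.63 and 7.67 in KI total, 7.65 and 7.74 in WT polysomal and 7.72 and 7.69 in KI polysomal RNA. The Tpt1 probe (ILMN_2858106) lay between 7.61 and 7.76. These values give no level for either mRNA in these fibroblasts and no comparison of the lines, although eEF1A is one of the most abundant proteins of most cells. Just at the filter, an Eef1d probe with a mean of 7.72 was left out and another with a mean of 7.77 was kept.

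**Figure D1:**
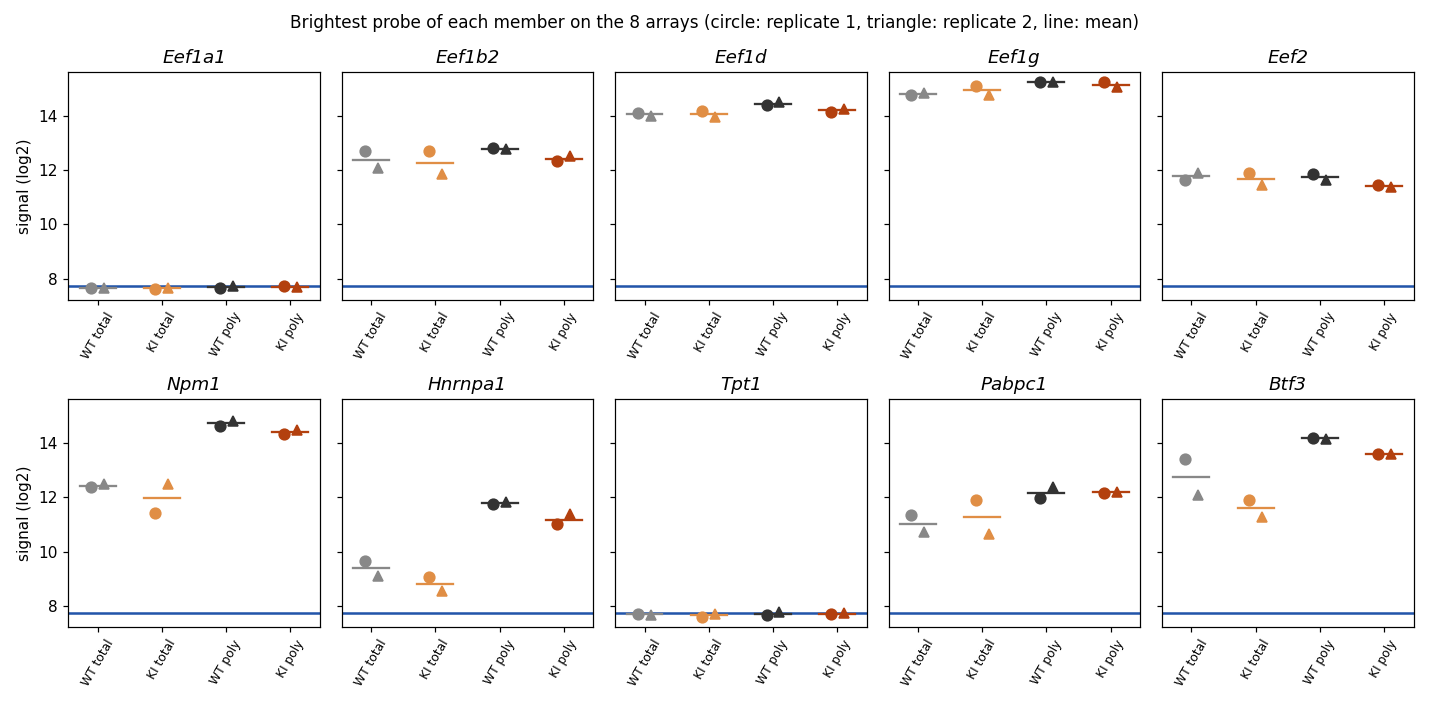
Signal (log2) of the brightest probe of each of the 10 members on the 8 arrays, by group; circles are replicate 1, triangles replicate 2, short lines group means of 2 arrays and the thin blue line the array medians (7.69 to 7.73). Npm1, Hnrnpa1 and Btf3 lie higher in polysomal than in total RNA, and Eef1a1 and Tpt1 stay at the bottom.

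The first comparison asked how far each mRNA was found on heavy polysomes relative to total RNA. With equal amounts of RNA labelled, these values are relative to other mRNAs and give no fraction of an mRNA on polysomes. In WT, 6 of the 17 tested member probes were higher in polysomal RNA and 0 lower, which is 35.3% against 20.8% of all 12848 tested probes called higher and 16.7% called lower. In KI 4 were higher and 0 lower, which is 23.5% against 21% and 15.9%. The probes passing belonged to Npm1, Hnrnpa1, Btf3, Eef1d and Eef1g in WT, and to Npm1, Hnrnpa1 and Btf3 in KI. Both counts include a dim Hnrnpa1 probe whose total RNA was at the bottom of the range, and with 1 probe per gene they were 5 and 3. The tool was limma with Benjamini-Hochberg adjustment over all tested probes, and a probe passed at an adjusted p below 0.05. In WT both polysomal arrays lay above both total arrays for 10 member probes (58.8%, against 37.3% of all tested probes), and in KI for 7 (41.2%, against 39.7%). The KI shares are close to those of all probes. Both of these counts of arrays apart include dim Hnrnpa1 and Pabpc1 probes. By brightest probe they were 7 of the 8 genes in WT and 4 in KI.

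The elongation factor mRNAs differed little between the 2 types of RNA. Eef1g was among the brightest probes of the array and read 14.77 and 14.83 in WT total and 15.22 and 15.23 in WT polysomal RNA. In KI it read 15.10 and 14.75 in total and 15.22 and 15.07 in polysomal RNA. The WT arrays did not overlap and the KI arrays did. These values lie near the top of the signal range. The highest value of any probe was 15.2 on each WT total array, and 15.7 and 15.6 on the WT polysomal arrays. In KI it was 15.8 and 15.2 in total and 15.6 and 15.7 in polysomal RNA. The part of the top of the range in the Eef1g values was not tested. The log2 difference was 0.42 ± 0.13 in WT (limma SE, 2 arrays per group, as for all differences below; adjusted p = 0.0478) and 0.22 ± 0.13 in KI (adjusted p = 0.243).

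The main Eef1d probe (ILMN_2624018) read 14.11 and 14 in WT total against 14.39 and 14.49 in WT polysomal RNA, and 14.16 and 13.95 against 14.15 and 14.23 in KI. Its difference was 0.39 ± 0.10 in WT (adjusted p = 0.0339, and 0.0705 with the culture as a replicate block) and 0.14 ± 0.10 in KI (adjusted p = 0.36). Both WT calls are small. Leaving out any WT array or either KI polysomal array ended both, with adjusted p up to 0.165 for Eef1d and 0.168 for Eef1g. A filter at the upper quartile ended both (adjusted p = 0.124 and 0.108), as did a trended prior (0.164 and 0.131). Eef1d was also lost in a fit of the WT groups alone (0.0526) and Eef1g with no filter (0.0853). In KI, Eef1g passed only without KI total replicate 1, at 0.39 (adjusted p = 0.0442). With a further quantile normalization the Eef1g difference in WT was 0.16 (adjusted p = 0.305).

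Eef1b2 had 3 probes above the filter and none passed. Its brightest probe (ILMN_2708644) read 12.70 and 12.07 in WT total, 12.70 and 11.84 in KI total, 12.80 and 12.77 in WT polysomal and 12.34 and 12.51 in KI polysomal RNA. Its total RNA therefore spanned more than the polysomal arrays did, and the differences of 0.40 ± 0.33 in WT and 0.15 ± 0.33 in KI lay within that spread (adjusted p = 0.379 and 0.756).

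For Eef2 the polysomal minus total values were close to 0 in WT and below 0 in KI, and the arrays of the brightest probe overlapped in each line. The brightest of its 3 probes (ILMN_1239110) read 11.65 and 11.89 in WT total, 11.90 and 11.43 in KI total, 11.84 and 11.64 in WT polysomal and 11.44 and 11.36 in KI polysomal RNA. The differences were -0.03 ± 0.18 in WT (adjusted p = 0.91) and -0.26 ± 0.18 in KI (adjusted p = 0.317). The other Eef2 probes had differences of -0.15 and -0.10 in WT, and -0.48 and -0.23 in KI, and none passed. In KI each of these probes had both polysomal arrays below both total arrays, as had 4230 of the 12848 tested probes. In WT only ILMN_1252294 had, as had 4718 of the tested probes.

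Npm1, Hnrnpa1 and Btf3 were higher in polysomal RNA in both lines. Npm1 encodes nucleophosmin, a nucleolar chaperone of ribosome assembly. It read 12.38 and 12.49 in WT total against 14.63 and 14.81 in WT polysomal RNA, and 11.42 and 12.50 against 14.34 and 14.47 in KI. Every polysomal array lay above every total array, and the difference was 2.29 ± 0.33 in WT (4.88-fold, adjusted p = 0.00541) and 2.44 ± 0.33 in KI (5.44-fold, adjusted p = 0.00475). These values were higher than those of 99.1% and 99.4% of tested probes.

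Hnrnpa1 encodes hnRNP A1, an RNA-binding protein of splicing and mRNA export. Its brighter probe (ILMN_3096701) read 9.65 and 9.10 in WT total, 9.06 and 8.54 in KI total, 11.76 and 11.82 in WT polysomal and 11 and 11.37 in KI polysomal RNA. The difference was 2.41 ± 0.26 in WT (5.33-fold, adjusted p = 0.00257) and 2.38 ± 0.26 in KI (5.20-fold, adjusted p = 0.00271). The calls for Npm1 and for this probe held in every setting tried, including each array left out in turn. The dimmer Hnrnpa1 probe (ILMN_3024068) had total RNA values at or near the bottom of the range (7.96 and 7.67 in WT, 7.73 and 7.7 in KI). Its differences, 1.03 ± 0.12 in WT (adjusted p = 0.00284) and 0.46 ± 0.12 in KI (adjusted p = 0.0272), are therefore no measure of a fold. The KI value had an adjusted p of 0.0577 with the culture as a replicate block. The KI call of that probe was also lost when any KI array or either WT polysomal array was left out (adjusted p up to 0.128).

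Btf3 encodes the beta subunit of the nascent polypeptide-associated complex, which binds new chains as they leave the ribosome. It read 13.41 and 12.08 in WT total, 11.89 and 11.28 in KI total, 14.18 and 14.16 in WT polysomal and 13.60 and 13.60 in KI polysomal RNA. Polysomal replicates lay almost on each other while total replicates were 1.33 apart in WT. The difference was 1.42 ± 0.44 in WT (2.68-fold, adjusted p = 0.0484) and 2.02 ± 0.44 in KI (4.04-fold, adjusted p = 0.0173). Without WT total replicate 2 the WT value was 0.76 (adjusted p = 0.0963). The WT call held only when WT total replicate 1 was the array left out, at 2.09, with adjusted p up to 0.162 otherwise. It was also lost with no filter on dim probes (0.122) and in a fit of the WT groups alone (0.116). The KI call was lost without either KI polysomal array or KI total replicate 2 (adjusted p up to 0.0853).

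Pabpc1 encodes the cytoplasmic poly(A)-binding protein. Its brightest probe (ILMN_1259482) read 11.35 and 10.71 in WT total, 11.89 and 10.65 in KI total, 11.96 and 12.36 in WT polysomal and 12.17 and 12.20 in KI polysomal RNA. Polysomal arrays lay above total arrays in each line, but the total replicates were far apart. The differences of 1.13 ± 0.43 in WT (adjusted p = 0.0885) and 0.91 ± 0.43 in KI (adjusted p = 0.151) did not pass. Without KI total replicate 1 or 2, which enter only through the shared spread, the WT value had an adjusted p of 0.0277, and it also passed with the filter at the upper quartile (0.0332) and with the trended prior (0.0484). Without KI total replicate 1 the KI value was 1.53 (adjusted p = 0.0266), and without replicate 2 it was 0.29. The other 2 Pabpc1 probes had means of 8.02 and 7.85, near the bottom.

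**Figure D2:**
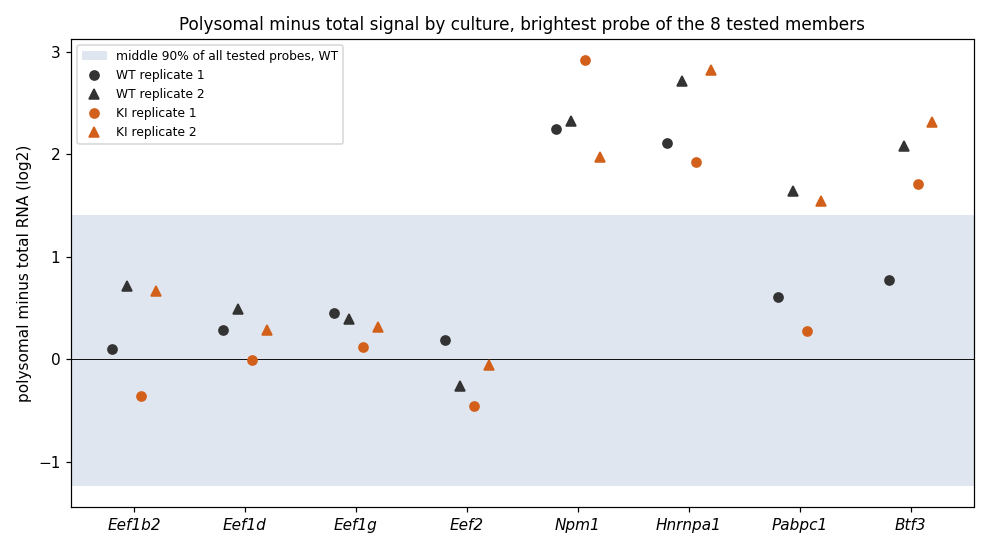
Polysomal minus total signal (log2) in each of the 4 cultures for the brightest probe of the 8 tested members; black is WT, orange is KI, circles are replicate 1 and triangles replicate 2, and the band is the middle 90% of all tested probes in WT (-1.24 to 1.41). The 4 cultures of Npm1 and of Hnrnpa1 lie above the band, and those of Eef1d, Eef1g and Eef2 within 0.5 of 0.

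Other genes of translation were set beside the members. Over the brightest probes of the 8 tested members, the median polysomal minus total difference was 0.78 in WT and 0.56 in KI, where the medians of all tested probes were -0.01 and 0.02. Of 11 tested mRNAs from a list of others reported to begin with a TOP, 4 were higher and 2 lower in each line, with medians of 1.01 in WT and 0.91 in KI. Nap1l1, a histone and nucleosome assembly protein gene, read 3.33 ± 0.21 in WT (adjusted p = 0.000901). Its dimmer probe, with a mean of 8.55, read 1.96 in WT and 1.01 in KI, where the brighter one read 3.09. Fau, which encodes a ubiquitin-like protein fused to a ribosomal protein, went the other way at -1.10 ± 0.11 (adjusted p = 0.00232).

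Of 54 tested cytosolic ribosomal protein genes, 4 were higher and 15 lower in WT and 4 higher and 18 lower in KI. Their medians were -0.06 and -0.31, so mRNAs of the TOP class lay on both sides of zero. Rps27 fell by 1.84 in WT and by 2.19 in KI (limma adjusted p = 0.00166 and 0.00114). Of 14 other elongation, termination and diphthamide genes, 4 were higher and 1 lower in WT, with a median of 0.01. Gspt1, a termination factor gene, read 2.03 (adjusted p = 0.00175) and Dph3, a diphthamide synthesis gene, -2.49 (adjusted p = 0.00276). Of 4 mitochondrial elongation factor genes, which are not TOP mRNAs, 1 passed as higher in each line, Gfm1, at 1.01 in WT. Of 18 tested regulators, such as mTORC1 components and cap-binding factors, 4 were higher and 3 lower in each line, with medians of 0.22 and 0.15. Larp1 was not among those tested, and the related Larp4 and Larp4b had means of 7.83 and 7.84, near the bottom. The 18 also hold Rps6, which is counted among the 54 ribosomal protein genes too.

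Partners and relatives of the members had values like theirs in some cases. Naca, the alpha subunit gene of the complex that holds the Btf3 protein, read 12.88 and 11.90 in WT total and 13.72 and 13.58 in WT polysomal RNA. It was higher on polysomes by 1.26 ± 0.33 in WT and 1.32 ± 0.33 in KI (limma adjusted p = 0.0304 and 0.0273), and its other 2 probes passed too. Hnrnpa2b1, a paralog of Hnrnpa1, read 2.41 in WT and 2.81 in KI (adjusted p = 0.00139 and 0.00106), and the nucleolin gene Ncl 2.47 and 1.89 (adjusted p = 0.00281 and 0.00567). Of 8 tested relatives, 3 passed as higher in WT and 2 in KI, with 0 lower.

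**Figure D3:**
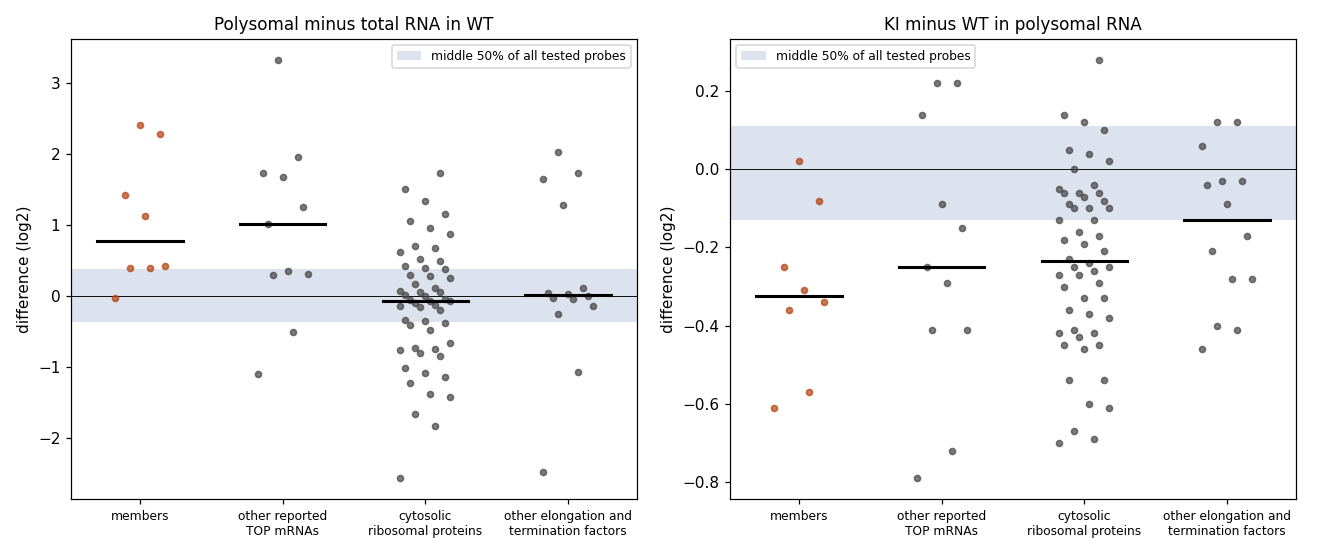
Difference (log2) per gene, by brightest tested probe, for the members and for lists of related genes: left, polysomal minus total RNA in WT; right, KI minus WT in polysomal RNA. Black lines are medians and bands the middle 50% of single tested probes, which is no measure of the spread of a median; on the right, the medians are -0.33 for the members, -0.25 for the other reported TOP mRNAs and -0.24 for the ribosomal protein genes.

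The lines were next compared within heavy polysomal RNA, to ask whether these mRNAs differed among messages on several ribosomes. None of the 17 member probes passed in limma, where 0.117% of all tested probes passed. An unadjusted p under 0.05 was found for 3 of them, and for 11.1% of all tested probes. Of the 17 values 16 were below 0, as were 54.5% of those of all tested probes. For 14 (82.4%) both KI arrays lay below both WT arrays, against 28.9% of all tested probes. These 14 probes belong to 7 genes, and probes of a gene are not independent. They include the Eef1d probe ILMN_3061673, which lies in the dim band and differed by only -0.03. The median over the 8 genes was -0.33, where that of all tested probes was -0.01.

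Among elongation factors, all 3 Eef2 probes were lower in both KI polysomal arrays. The probe ILMN_1252294 read 11.22 and 11.10 on the WT arrays and 10.65 and 10.57 on the KI arrays, a difference of -0.55 ± 0.10 (adjusted p = 0.144). The other Eef2 probes read -0.34 ± 0.18 and -0.41 ± 0.21 (adjusted p = 0.589 and 0.548). The Eef1d probe annotated to another transcript (ILMN_3139168) read 10.87 and 10.66 on the WT arrays and 9.97 and 10.17 on the KI arrays, a difference of -0.69 ± 0.16 (adjusted p = 0.212). The dim probe ILMN_3061673 is annotated to that same transcript and read -0.03 ± 0.09 here and -0.07 ± 0.09 in total RNA. The difference thus rests on a single probe. The main Eef1d probe read -0.25 ± 0.10 (adjusted p = 0.465). The 3 Eef1b2 probes read between -0.36 and -0.19, and Eef1g -0.08 ± 0.13.

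Of the other members, the dimmer Hnrnpa1 probe read 8.78 and 8.91 on the WT arrays and 8.15 and 8.21 on the KI arrays, a difference of -0.67 ± 0.12 (adjusted p = 0.134). The brighter one read -0.61 ± 0.26 (adjusted p = 0.465). The dimmer one is another probe of the same gene on the same arrays, so it is no independent measure of that difference. In total RNA the brighter probe differed by -0.57 ± 0.26 and the dimmer one, at the bottom of the range there, by -0.10 ± 0.12. Btf3 read -0.57 ± 0.44 and Npm1 -0.31 ± 0.33 (adjusted p = 0.77 and 0.889). The brightest Pabpc1 probe read 0.02 ± 0.43 with overlapping arrays, so no sign can be given, and its 95% interval ran from -1.04 to 1.08.

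Cytosolic ribosomal protein genes were also mostly lower in sign in polysomal RNA, with 47 of 54 below 0 and a median of -0.24. Of the 11 other reported TOP mRNAs 8 were below 0, with a median of -0.25, and of the 14 other elongation, termination and diphthamide genes 11 were, with a median of -0.13. In limma 0 genes of these 3 lists passed. An unadjusted p under 0.05 was found for 8, 2 and 2 genes, to be read against the 11.1% of all tested probes. Nap1l1 read -0.72, with -1.15 at its dimmer probe, and Fau -0.41. Of 18 regulators of TOP translation and of the cap complex, 10 were above 0 and 8 below, with a median of 0. The 4 mitochondrial elongation factor genes were all below 0 too (median -0.13, 0 passing and 1 with an unadjusted p under 0.05).

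Markers of other kinds moved between the lines on the same arrays. The summed level of the 11 fibroblast markers was 115.8 to 116.8 in WT and 117.2 to 119.2 in KI polysomal RNA. The collagen gene Col1a1 lay at 10.56 and 11.04 on the WT arrays and at 11.82 and 12.73 on the KI arrays, and the proteoglycan gene Dcn went the other way, at 13.89 and 14.05 against 10.96 and 10.62. The summed level of 4 neural markers was 32.8 to 33.6 in WT and 34.3 to 34.8 in KI, but 2 of them were higher and 2 lower in KI. Nes lay at 8.65 and 9.57 on the WT arrays and at 10.09 and 10.75 on the KI arrays. Map2 went the other way, at 8.65 and 8.52 against 8.20 and 8.35. The part of these differences in the members' values was not tested.

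KI against WT in total RNA asked the same of the cytoplasmic mRNA pool. None of the 17 member probes passed in limma, where 0.07% of all tested probes passed. An unadjusted p under 0.05 was found for 3 of them, and for 8.72% of all tested probes. Of the 17 values 14 were below 0, as were 60.1% of those of all tested probes. For 4 (23.5%) both KI arrays lay below both WT arrays, against 18.8% of all tested probes, a share near the background. The median over the 8 genes was -0.11. It was -0.36 without KI total replicate 1 and 0.12 without KI total replicate 2, so its sign rested on those arrays.

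Btf3 differed by -1.16 ± 0.44 in total RNA (adjusted p = 0.548). The value was -0.49 without WT total replicate 1 and -1.82 without WT total replicate 2. KI minus WT was -1.52 for replicate 1 and -0.80 for replicate 2. The Eef1d probe ILMN_3139168 read 10.71 and 10.34 in WT total and 9.86 and 9.74 in KI total, a difference of -0.73 ± 0.16 (adjusted p = 0.32), much as in polysomal RNA. Over the same arrays the main Eef1d probe read 0.00 ± 0.10. The Eef2 probe ILMN_1252294 read -0.42 ± 0.10 (adjusted p = 0.346), but the other Eef2 probes -0.11 and -0.08. Npm1 read -0.47 ± 0.33, all of it from replicate 1, where KI minus WT was -0.96 against 0.01 for replicate 2.

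**Figure D4:**
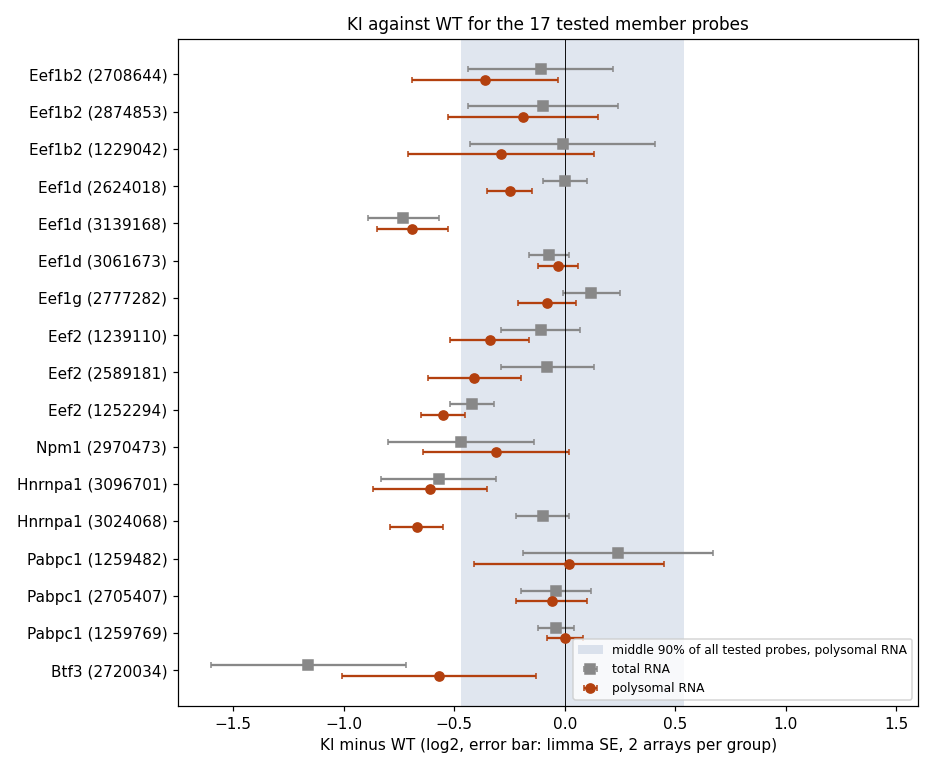
KI minus WT (log2) for each of the 17 tested member probes, with limma standard errors from 2 arrays per group; grey squares are total RNA, red circles polysomal RNA, labels give the gene and the number of its ILMN probe, and the band is the middle 90% of all tested probes in polysomal RNA (-0.47 to 0.54). Most polysomal values lie left of 0, and none passed the adjusted threshold.

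Polysomal loading is the interaction of line and RNA type: polysomal minus total in KI, less the same in WT. It asked whether the lines differed in how far each mRNA was found on heavy polysomes, relative to other mRNAs. Each sample was labelled from 250 ng of RNA, so a shift shared by all mRNAs would not show. In limma 0 member probes passed and 1 had an unadjusted p under 0.05, while 0% of all tested probes passed (301 had an unadjusted p under 0.05). The intervals were wide. Eef2 (ILMN_1239110) had a loading difference of -0.23 with a 95% interval from -0.86 to 0.41, and the main Eef1d probe -0.25 with -0.62 to 0.12. For Eef1g it was -0.21, with an interval from -0.66 to 0.24.

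Npm1 had a loading difference of 0.16 with an interval from -1 to 1.31, and Hnrnpa1 (ILMN_3096701) -0.04 with -0.93 to 0.86. Btf3 had the largest positive value, 0.59, with an interval from -0.93 to 2.11, and it read -0.07 without WT total replicate 1. The dimmer Hnrnpa1 probe had a loading difference of -0.57 ± 0.16 (unadjusted p = 0.0142, adjusted p = 1), but its total RNA signal was at the dim end in both lines (WT 7.96 and 7.67, KI 7.73 and 7.7), which bounds how low the total value can read. The median over the 8 genes was -0.21, and it was 0.10 without KI total replicate 1 and 0.08 without WT total replicate 2.

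The replicate experiments differed for these mRNAs in total RNA far more than on polysomes. In total RNA, replicate 2 minus replicate 1 had a median over the 8 genes of -0.33 in WT and -0.50 in KI, against -0.01 and 0.04 over all tested probes. It was negative for 5 of 8 genes in WT and 7 of 8 in KI, and for 52.1% and 42.4% of all tested probes. In polysomal RNA the medians were 0.03 and 0.06. All 3 Eef1b2 probes were lower in total replicate 2, by between 0.61 and 1.26, and Pabpc1 (ILMN_1259482) read -0.64 in WT and -1.24 in KI. Npm1 went the other way in KI total RNA, at 1.08. These differences enter every comparison above, because the fit shares a spread per probe over all 8 arrays. That holds for KI against WT in polysomal RNA too. Btf3 had an SE of 0.44 both there and in total RNA, though its polysomal replicates lay almost on each other.

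Across the 8 arrays the members did not share 1 profile. Each brightest probe was set against the mean of the other members, each centred on its own mean. Pearson's r was 0.99 for Hnrnpa1, 0.92 for Btf3, 0.90 for Eef1d, between 0.81 and 0.82 for Npm1, Eef1g and Pabpc1, 0.64 for Eef1b2 and -0.19 for Eef2. The 8 points are 4 groups of 2 arrays, so the split between total and polysomal RNA sets most of these values. Among 8824 other genes, those most like the mean profile were Actl6a, Rbbp7, Ran, Atp6v1c1 and Tcp1, with r between 0.993 and 0.994. Rbbp7 read 9.97 and 8.81 in WT total, 9.28 and 8.44 in KI total, 12.46 and 12.28 in WT polysomal and 11.72 and 11.61 in KI polysomal RNA.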

How the data were processed

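The deposited table holds the authors' processed log2 signal for 8 labelled arrays. The scale was taken as log2 from the values, and the submitters' processing notes list lumi alone, so how background was corrected and arrays normalized is not given in the sources used here. A second table held the same values in 8 columns under names that no label gives, and these were not used. Gene names come from GEO's platform annotation, in which 23978 probes had 1 symbol, 0 several and 1719 none. All 20 member probes matched RefSeq by gene ID.

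limma 3.58.1 in R 4.3.3 (lmFit, eBayes) fitted 4 group means to the 12848 probes whose mean exceeded 7.73, with 4 residual and 1.8 prior degrees of freedom. Tests were two-sided and adjusted by Benjamini-Hochberg over all those probes. Each probe was tested, not each gene, because the members are defined by probe; a gene's brightest probe stands for it. The fit was tested on simulated data. The 10 members and the lists were chosen with earlier results of these data known. Named genes were the members, Eif4e, up to 4 genes of each list by smallest p in a comparison and the 5 most alike in profile. Total and polysomal RNA of a line and number share a source name, read as 1 culture. Deviations of these pairs correlated at 0.04 in WT and 0.56 in KI. Other settings tried were 1 probe per gene, no filter, a stricter filter, quantile normalization, a trended prior, fewer groups, a replicate block and each array left out. The number of arrays limits the precision.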

Additional observations from a re-analysis of the deposited data

How the results depend on the processing

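In KI against WT and in polysomal loading 0 member probes passed in limma under any setting. The polysomal excess of Npm1 and of the brighter Hnrnpa1 probe passed under every setting, and the Btf3 call in KI under all but 3 arrays left out. No called value changed sign. Member probes called higher on polysomes ranged from 3 to 6 in WT and from 2 to 5 in KI with 1 array left out; the WT count was 3 without either WT polysomal array, either KI polysomal array or WT total replicate 2, and the KI count was 2 without either KI polysomal array or KI total replicate 2. With no filter on dim probes the Eef1d probe ILMN_2423292, in the bottom band, made 1 lower in WT, and the member medians, which then include Eef1a1 and Tpt1, were 0.41 in WT and 0.19 in KI. With 1 array left out the medians ranged from 0.61 to 1.08 in WT and 0.17 to 1.06 in KI, from -0.36 to 0.12 for KI against WT in total RNA, from -0.34 to -0.26 in polysomal RNA and from -0.37 to 0.10 for loading. The cause of these shifts was not tested.

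Over all probes, the 9 called between lines in total RNA became 16 with no filter, 14 with the stricter filter, 67 with the trended and robust prior and 0 in limma with only 2 groups. The 15 in polysomal RNA became 5 with 1 probe per gene, 32 with the stricter filter, 88 with the trended prior and 3 with only 2 groups. With 1 array left out they ranged from 0 to 44 and from 0 to 58, loading from 0 to 10, and polysomal against total RNA from 1903 to 5006 in WT and 1875 to 5121 in KI. With the replicate number as a block 12 and 20 probes differed between lines, and with the culture as a replicate block 5108 and 4987 differed between types of RNA in WT and KI. Beside the 2 calls named above, these blocks changed no call of a member probe. Probes at the bottom of the signal range limit what can be seen of Eef1a1, Tpt1 and the dimmer Pabpc1 and Eef1d probes.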
